A study of Homo sapiens with 6 samples.

Results

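The 9 genes described here encode regulators that meet at the same DNA site: the ID proteins (ID1, ID2, ID3 and ID4), the neuronal factors NHLH1 and NHLH2, the glial lineage factors OLIG1 and OLIG2, and the E protein TCF12. They were taken by symbol, and all 9 are among the 26485 gene symbols counted in AF22 cells, an established line of human neural stem cells. The knockdown group holds 3 libraries of AF22 cells labelled BMI1/COMMD3-BMI1 knockdown, COMMD3-BMI1 being the read-through transcript of BMI1 and its upstream neighbour. The control group holds 3 libraries of AF22 cells with a short hairpin RNA control, with the genotype WT. BMI1 belongs to the Polycomb group, whose complexes keep developmental genes silent. The titles number the libraries of each group 1 to 3 without saying whether a number is a separate culture, so the p-values below cover only library-to-library spread, possibly technical in origin. All libraries come from 1 cell line.

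Basic helix-loop-helix (bHLH) factors bind DNA in pairs, at a short sequence called the E-box. E proteins such as TCF12 are the broadly expressed partner in most pairs, and the tissue-specific partner in the nervous system may be one of the proneural, NHLH and OLIG factors. ID proteins have the helix-loop-helix but no DNA-binding basic region, so they capture E proteins in pairs that cannot bind the E-box. In neural stem cells they are known for holding back differentiation, and bone morphogenetic protein (BMP) signals acting through SMAD factors are a classical inducer of ID1, ID2 and ID3.

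Total counts were 4962745 to 9640349 in knockdown and 5496683 to 6870122 in control libraries. BMI1, the target, was at 39.9, 21.5 and 26.2 CPM (counts scaled by TMM-adjusted library size) in knockdown libraries 1, 2 and 3, and at 85.1, 90.0 and 87.4 CPM in control libraries 1, 2 and 3. Its paired log2 fold change was -1.64 (SE 0.155, edgeR adjusted p 0.00836), and the unpaired adjusted p was 0.163. Of the neural stem cell markers, SOX2 averaged 325.5 ± 54.1 CPM in knockdown and 344.7 ± 34.3 CPM in control libraries, and NES 868.8 ± 253.2 CPM in knockdown and 1033 ± 50.5 CPM in control libraries (SD, n = 3 each), while HES5 was listed at 0 in all 6. Knockdown library 2 stood apart, at 40.2 on the first principal component, where the other knockdown libraries were at -12.4 and 11.5 and the controls between -25.5 and -4.07.

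The genes sit on 6 chromosomes, and coordinates are those of GENCODE 29 on GRCh38, the assembly that the labels name as hg38. ID1 lies at chr20:31605283-31606515 on the plus strand, ID2 at chr2:8678845-8684453 (plus), ID3 at chr1:23557918-23559794 (minus) and ID4 at chr6:19837386-19840684 (plus). NHLH1 lies at chr1:160367067-160372848 (plus) and NHLH2 at chr1:115836377-115843917 (minus). OLIG2 and OLIG1 lie close together, at chr21:33025845-33029196 and chr21:33070144-33072420, both on the plus strand, and TCF12 spans chr15:56918623-57299281 (plus). All are protein-coding. Exons of OLIG1 share 201 bp with the antisense gene AP000282.1, and those of ID2 share 38 bp with ID2-AS1. The strand setting of the counting is not given in the sources used here, so reads of these pairs cannot be told apart. The other 7 genes share no exon sequence with another annotated gene.

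The start regions of the ID genes and of NHLH2, the members on which the results turn, are shown because bHLH factors bind E-boxes and ID proteins keep their partners from them. Each window runs from 250 bases before to 50 after a RefSeq start on GRCh38.p14, 5′ to 3′ on the gene's strand. The ID4 start lies just before the GENCODE gene and the other printed starts lie inside theirs. Capitals mark E-boxes (CANNTG) and TATA motifs (TATAA, or its reverse complement), both searched on both strands; in ID1 a match on each strand overlaps.
ID1, chr20:31605039-31605338, plus: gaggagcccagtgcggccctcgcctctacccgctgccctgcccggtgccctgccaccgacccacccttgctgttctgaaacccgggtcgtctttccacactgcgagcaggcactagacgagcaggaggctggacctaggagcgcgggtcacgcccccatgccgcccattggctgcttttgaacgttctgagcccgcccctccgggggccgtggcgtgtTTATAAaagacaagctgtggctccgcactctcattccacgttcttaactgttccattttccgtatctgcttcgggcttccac
ID2, chr2:8681806-8682105, plus: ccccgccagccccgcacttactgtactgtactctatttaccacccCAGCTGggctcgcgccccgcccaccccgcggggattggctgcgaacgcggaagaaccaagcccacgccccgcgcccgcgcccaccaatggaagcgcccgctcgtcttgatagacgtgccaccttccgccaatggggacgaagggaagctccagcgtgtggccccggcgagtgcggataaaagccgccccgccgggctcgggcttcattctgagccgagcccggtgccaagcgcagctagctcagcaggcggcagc
ID3, chr1:23559452-23559751, minus: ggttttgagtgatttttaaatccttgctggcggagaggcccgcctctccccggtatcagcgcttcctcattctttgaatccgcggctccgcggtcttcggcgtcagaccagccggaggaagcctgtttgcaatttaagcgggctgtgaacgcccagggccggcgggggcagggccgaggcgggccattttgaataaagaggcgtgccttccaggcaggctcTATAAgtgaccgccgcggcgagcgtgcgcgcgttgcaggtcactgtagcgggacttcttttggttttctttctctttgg
ID4, chr6:19837120-19837419, plus: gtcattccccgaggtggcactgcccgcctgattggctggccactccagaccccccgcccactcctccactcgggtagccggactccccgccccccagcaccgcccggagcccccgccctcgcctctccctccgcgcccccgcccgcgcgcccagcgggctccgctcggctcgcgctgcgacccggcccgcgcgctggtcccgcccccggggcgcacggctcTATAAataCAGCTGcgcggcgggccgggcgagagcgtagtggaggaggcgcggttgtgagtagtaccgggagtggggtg
NHLH2, upstream start, chr1:115841077-115841376, minus: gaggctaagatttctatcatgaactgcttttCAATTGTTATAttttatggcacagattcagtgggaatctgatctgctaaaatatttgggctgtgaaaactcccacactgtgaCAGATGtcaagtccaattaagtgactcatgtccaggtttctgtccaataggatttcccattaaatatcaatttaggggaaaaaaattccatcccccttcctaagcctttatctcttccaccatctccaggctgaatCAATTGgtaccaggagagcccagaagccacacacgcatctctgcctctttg
NHLH2, downstream start, chr1:115840654-115840953, minus: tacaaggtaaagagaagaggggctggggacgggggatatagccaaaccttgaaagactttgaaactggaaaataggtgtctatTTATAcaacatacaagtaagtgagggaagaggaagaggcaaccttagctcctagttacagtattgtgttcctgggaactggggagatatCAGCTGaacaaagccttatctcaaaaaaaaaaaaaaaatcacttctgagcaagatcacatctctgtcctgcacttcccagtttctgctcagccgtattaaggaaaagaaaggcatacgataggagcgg
The ID1, ID3 and ID4 windows hold a TATA motif that begins 32, 29 and 29 bases before the start, a motif found in 20.4% of the 35116 human windows of this length. The ID2 window has none. The ID2 and ID4 windows hold 1 E-box each, both with the core CAGCTG (17.9% of windows), 205 and 21 bases before the start. No E-box was in the ID1 and ID3 windows. The upstream window of NHLH2 holds 3 E-boxes and the downstream one 1, where 68.7% of all windows hold at least 1. The 2 NHLH2 windows are also the poorest in G and C of those printed, at 41.7% and 42.7%, against 59.7% to 76.3% in the ID windows. The SMAD-type element GGCGCC (19.2% of windows) was in none of the 6, which says only that these letters are not in these windows. RefSeq windows were found for 7 of the 9 genes.

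Among the 9 genes, levels differed far more between genes than between groups. Per kilobase of exon, ID4 was highest, at 83.1 ± 4.46 CPM per kb in knockdown and 79.9 ± 0.922 in control libraries (mean ± SD, n = 3 each). ID3 came next, at 61.9 ± 7.21 CPM per kb in knockdown and 53.1 ± 6.59 in control libraries. TCF12 followed, at 31.3 ± 3.19 CPM per kb in knockdown and 30.2 ± 4.12 in control libraries. These 3 genes did not overlap each other in any library. ID2 (knockdown 4.08, control 4.12 CPM per kb), ID1 (knockdown 3.14, control 4.10) and OLIG1 (knockdown 3.35, control 2.93) formed a lower tier in which neighbours in the order overlapped. OLIG2 was below them, at 0.781 CPM per kb in knockdown and 0.867 in control libraries, and overlapped neither OLIG1 nor NHLH1. NHLH1 (knockdown 0.415, control 0.298) and NHLH2 (knockdown 0.462, control 0.196) were lowest and overlapped each other, though NHLH2 in knockdown library 2, at 0.807, reached into the range of OLIG2. The place of NHLH2 depends on its annotated exon length, 7541 bp against 2563 bp for NHLH1. Its longest transcript is nearly as long, at 7226 bp. In CPM, NHLH2 averaged 3.48 in knockdown and 1.48 in control libraries, and NHLH1 1.06 and 0.765. With the longest transcript as the length, ID3 was at 89.0 and ID4 at 83.1 CPM per kb in knockdown libraries, so that the order of the top pair turned there, and 7 of the 9 genes kept their place in the knockdown order.

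**Figure D1:**
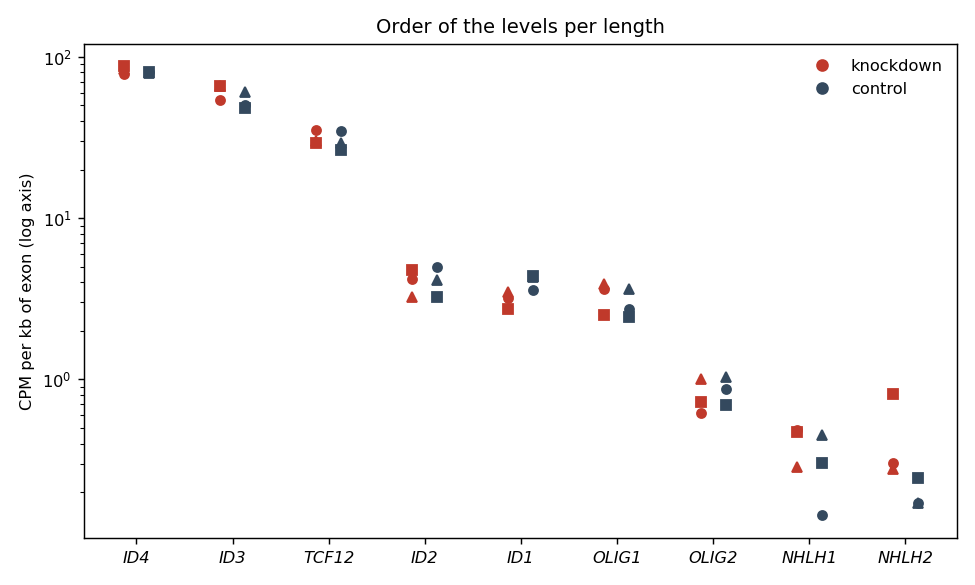
Level of each gene in CPM per kilobase of exon (log axis), ordered by the control mean; each point is 1 library, knockdown to the left of control, with circles, squares and triangles for library numbers 1, 2 and 3. ID4, ID3 and TCF12 lie at 26.6 CPM per kb or more in every library, and the other genes at or below 5 CPM per kb.

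The comparison of knockdown with control asks whether lowering BMI1 altered these regulators. NHLH2 was the only member called: of the 8 members with enough counts to be tested, the fit that pairs same-numbered libraries called 1 higher and 0 lower at an adjusted p under 0.05. Over all 12937 genes tested the paired fit called 10%, with 4.63% higher and 5.39% lower, so 1 of 8 members is near the background. The unpaired fit called 0 members and 0 genes in all, 0% (edgeR's quasi-likelihood test). At an unadjusted p under 0.05, 1 member passed unpaired (NHLH2; 14.4% of all genes) and 2 passed paired (NHLH2 and ID3; 28.7% of all genes). Limma voom also called 0 members and 0 genes unpaired. DESeq2 called 126 genes unpaired and none of the 4 members to which it gave an adjusted p; at an unadjusted p under 0.05, NHLH2 passed there and 0 members did with voom. In 2 of the 8, ID1 and NHLH2, no knockdown library overlapped a control library, as in 20.5% of all genes. The median paired log2 fold change of the 8 tested members was 0.06, against -0.0045 over all genes tested. In whole-culture RNA, fewer cells of a type and less RNA per cell cannot be told apart.

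ID4, known in the adult mouse hippocampus for keeping neural stem cells quiescent, was at 183.6, 204.4 and 196.2 CPM in knockdown libraries 1, 2 and 3, and at 189.3, 187.5 and 185.0 CPM in control libraries 1, 2 and 3. The knockdown values lay on both sides of a tight control group, and the groups overlapped. The paired fit gave a log2 fold change of 0.06 (SE 0.065, edgeR adjusted p 0.60).

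ID3, which overlaps with ID1 in function in the developing mouse brain, was at 96.4, 118.7 and 118.9 CPM in knockdown libraries 1, 2 and 3, and at 90.4, 86.9 and 108.9 CPM in control libraries 1, 2 and 3. It was higher in the knockdown library of all 3 pairs, by 0.09, 0.45 and 0.13 on the log2 scale, though the groups overlapped through control library 3. Its paired log2 fold change was 0.22 (SE 0.084), a 1.17-fold level, with an edgeR adjusted p of 0.119, and the unpaired adjusted p was 0.436. Moving the same way in all 3 pairs was common, at 52.3% of the genes tested. Most of the difference lay in pair 2, and without that pair the log2 fold change was 0.11 (adjusted p 0.262).

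ID1, the classical BMP target among the ID genes, was low and pointed the other way. Its counts were 19, 25 and 41 in knockdown libraries 1, 2 and 3, and 24, 35 and 37 in control libraries 1, 2 and 3. Scaled by library size these were 3.93, 3.38 and 4.30 CPM in knockdown and 4.41, 5.41 and 5.34 CPM in control libraries. Every knockdown library lay below every control library, as did 11.2% of all genes tested. Pair by pair, the log2 difference was -0.16, -0.63 and -0.30. The paired log2 fold change was -0.40 (SE 0.218, edgeR adjusted p 0.265), and -0.26 without pair 2 (adjusted p 0.605). With so few counts a shift of this size was not separable from the spread between libraries.

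ID2, known also for binding the retinoblastoma protein, was at 9.31, 10.5 and 7.12 CPM in knockdown libraries 1, 2 and 3, and at 11.0, 7.11 and 9.09 CPM in control libraries 1, 2 and 3. The groups overlapped in full, and the pairs disagreed in direction, at -0.24, 0.55 and -0.34 on the log2 scale. The paired log2 fold change of ID2 was -0.01 (SE 0.209, edgeR adjusted p 0.985).

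Taken as a pool, the 4 ID genes summed to 293.2, 336.9 and 326.6 CPM in knockdown libraries 1, 2 and 3, and to 295.1, 286.9 and 308.3 CPM in control libraries 1, 2 and 3. The pool averaged 318.9 ± 22.9 CPM in knockdown and 296.8 ± 10.8 CPM in control libraries (SD, n = 3 each), with overlapping groups. ID4 made up 60.1% to 62.6% of ID counts in knockdown and 60.0% to 65.4% in control libraries. ID3 gave 32.9% to 36.4% in knockdown and 30.3% to 35.3% in control libraries. ID1 and ID2 together gave 3.50% to 4.51% in knockdown and 4.36% to 5.23% in control libraries. These shares are of counts, so longer transcripts weigh more.

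**Figure D2:**
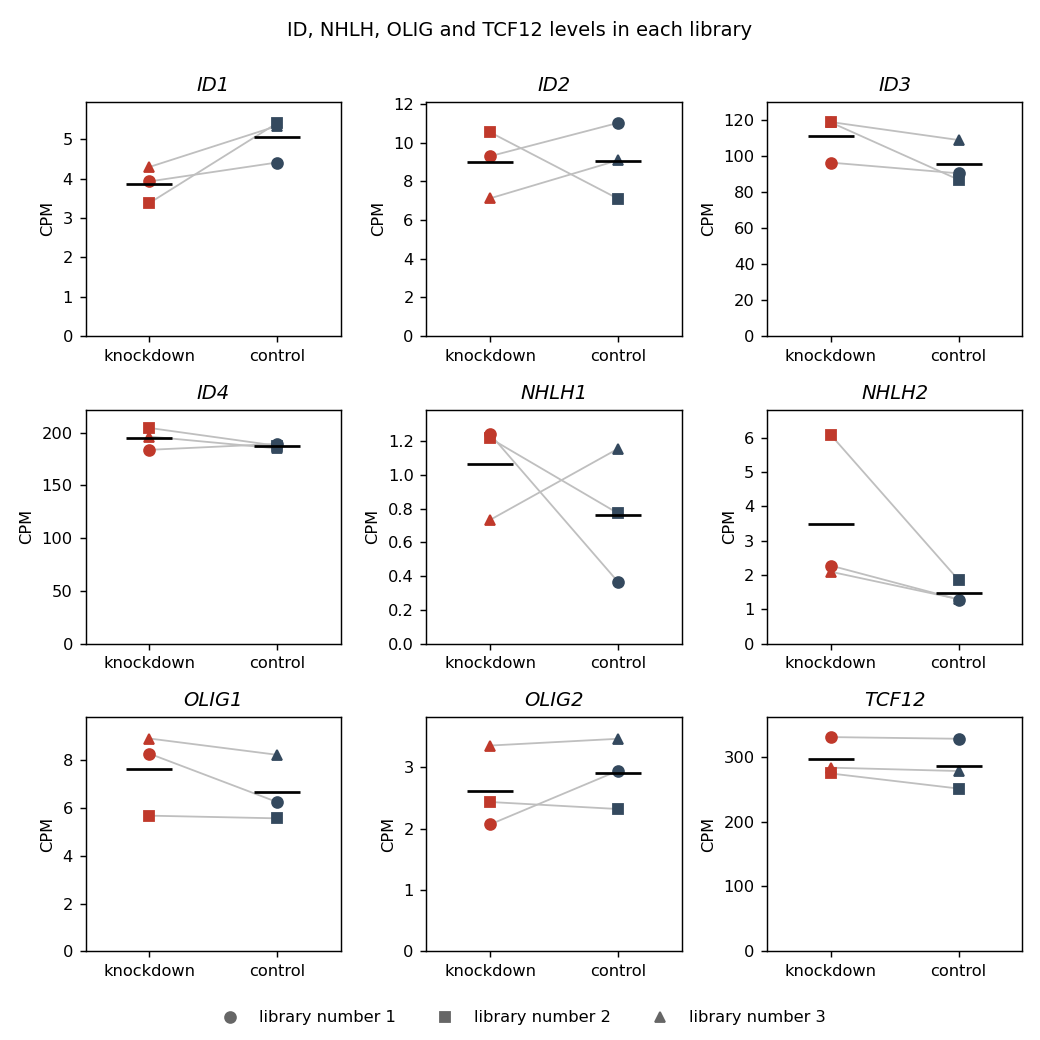
Level of each of the 9 genes in CPM, in knockdown (left, red) and control libraries (right, dark); each symbol is 1 library, grey lines join libraries of the same number, and bars mark group means. ID1 is the member whose knockdown libraries all lie below the controls, and NHLH2 the one whose knockdown libraries all lie above them.

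NHLH2, a bHLH factor of developing neurons that is also needed for hypothalamic control of weight and fertility in mice, was the member that rose. Its counts were 11, 45 and 20 in knockdown libraries 1, 2 and 3, and 7, 12 and 9 in control libraries 1, 2 and 3. In CPM these were 2.27, 6.08 and 2.10 in knockdown and 1.29, 1.85 and 1.30 in control libraries. Every knockdown library lay above every control library, as did 9.28% of all genes tested, and knockdown library 2 lay far above the other two. It was higher in each pair, by 0.70, 1.57 and 0.58 on the log2 scale. The paired log2 fold change was 1.20 (SE 0.317), 2.30-fold, with an edgeR adjusted p of 0.0473, close to the threshold of 0.05. The unpaired fit gave 1.23 (SE 0.491, adjusted p 0.311).

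The rise of NHLH2 rested on few counts and largely on the pair numbered 2. The exact 95% Poisson interval of its count was 5.49 to 19.7 in knockdown library 1 and 2.81 to 14.4 in control library 1, and the intervals also overlapped in pair 3 (12.2 to 30.9 in knockdown and 4.12 to 17.1 in control). In pair 2 they did not, at 32.8 to 60.2 in knockdown and 6.20 to 21.0 in control. These intervals are of raw counts, not scaled to library size, which differed within pairs, and they cover counting error only. Without pair 2 the log2 fold change was 0.73 (edgeR adjusted p 0.311), and without pair 1 it was 1.32 (adjusted p 0.0537). Without pair 3 it was 1.41 (adjusted p 0.0326). Limma voom gave an adjusted p of 0.0531 in the paired design, and DESeq2 gave no adjusted p for so low a gene, with an unadjusted p of 0.0595. Knockdown library 2 is also the library that stood apart across all genes.

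NHLH1, the close relative of NHLH2, was too low for the filter. Its counts were 6, 9 and 7 in knockdown libraries 1, 2 and 3, and 2, 5 and 8 in control libraries 1, 2 and 3. The groups overlapped, and pair 3 ran against the other two. With no filter on low counts the paired log2 fold change was 0.34 (SE 0.594, edgeR adjusted p 0.800).

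OLIG2 specifies motor neuron and oligodendrocyte progenitors, and OLIG1 acts later, in myelination. OLIG1 was at 8.27, 5.68 and 8.91 CPM in knockdown libraries 1, 2 and 3, and at 6.25, 5.56 and 8.22 CPM in control libraries 1, 2 and 3. It followed the library number more than the group: library 3 was highest and library 2 lowest in both groups. Its log2 fold change in the paired fit was 0.17 (SE 0.178, edgeR adjusted p 0.565). OLIG2 was at 2.07, 2.43 and 3.35 CPM in knockdown libraries 1, 2 and 3, and at 2.94, 2.32 and 3.46 CPM in control libraries 1, 2 and 3. The groups overlapped, and the paired log2 fold change was -0.12 (SE 0.259, edgeR adjusted p 0.806).

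Of 12 oligodendrocyte lineage genes, SOX10 and NKX2-2 were listed at 0 in all 6 libraries, and 6 passed the filter. None of the 6 was called (median paired log2 fold change 0.09), while without pair 2 the calls were 1 higher, CNP (0.16), and 1 lower. The smallest p-value was that of the growth factor receptor gene PDGFRA (0.80, edgeR adjusted p 0.0528). CNP was at 0.17 (adjusted p 0.107) and the myelin regulator gene MYRF at -0.22 (adjusted p 0.381). Over all genes, the paired fit without pair 2 called more: 1198 higher and 1098 lower of 12846 tested. With every pair it called 599 higher and 697 lower of 12937.

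TCF12, the E protein of the set, was at 330.2, 274.1 and 283.1 CPM in knockdown libraries 1, 2 and 3, and at 327.6, 250.9 and 277.9 CPM in control libraries 1, 2 and 3. The order of the libraries was the same in both groups, and within pairs the log2 differences were 0.01, 0.13 and 0.03. The paired fit gave TCF12 a log2 fold change of 0.06 (SE 0.062, edgeR adjusted p 0.598). TCF3 and TCF4 encode the other E proteins. TCF3 averaged 251.0 ± 8.88 CPM in knockdown and 270.6 ± 4.64 CPM in control libraries, and TCF4 193.1 ± 22.2 CPM in knockdown and 167.1 ± 6.31 CPM in control libraries (SD, n = 3 each). Neither group overlapped the other in either gene, as in 20.5% of all genes, and neither gene was called. The paired log2 fold change was -0.11 for TCF3 (SE 0.062, edgeR adjusted p 0.286) and 0.21 for TCF4 (SE 0.076, adjusted p 0.115). TCFL5, a bHLH factor listed beside them, had no overlap either and was at -0.24 (adjusted p 0.154). Exons of TCF4 share 65 bp with TCF4-AS2 and 195 bp with the pseudogene RPL21P126, both on the other strand. Per kilobase of exon TCF3 was at 41.3 CPM in knockdown and 44.5 CPM in control libraries, so TCF3, like TCF12, was below ID3 and ID4 in both groups.

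**Figure D3:**
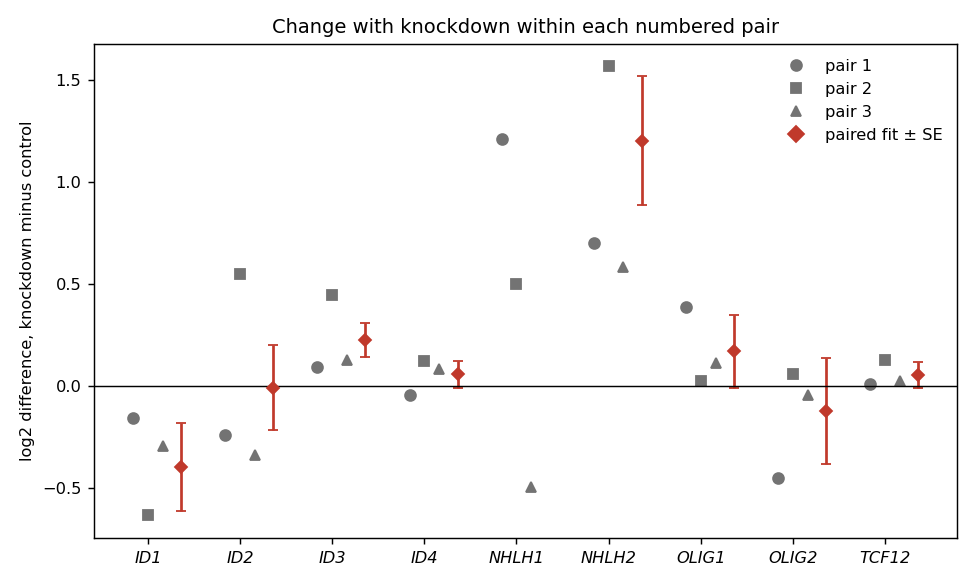
Log2 difference in CPM, knockdown minus control, within pairs of libraries numbered 1 (circles), 2 (squares) and 3 (triangles), with the log2 fold change of the paired fit and its SE (red diamonds) for the 8 genes tested. NHLH2 is above 0 in all 3 pairs and ID1 below 0 in all 3; pair 2 is the farthest from 0 for both, at 1.57 and -0.63.

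Tissue-specific partners of the E proteins were mostly at or near 0. Of 22 further proneural and other neural bHLH genes, 13 were listed at 0 in all 6 libraries and 2 passed the filter. Of these, ATOH8 was called higher in the paired fit, as were 4.63% of all genes. ATOH8, an atonal-related factor known as a BMP-responsive gene in several cell types, was at 221.9, 273.8 and 242.4 CPM in knockdown libraries 1, 2 and 3, and at 190.4, 215.3 and 201.8 CPM in control libraries 1, 2 and 3. The groups did not overlap, as in 20.5% of all genes. Its paired log2 fold change was 0.28 (SE 0.062, edgeR adjusted p 0.0328), and 0.24 without pair 2, where it was also called. The unpaired adjusted p was 0.288. Because the fit without pair 2 called more genes in all, calls kept there, here and below, add no support. ASCL2 was at -0.11 (adjusted p 0.769).

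HES and HEY repressors act against proneural factors, many of them downstream of Notch. Of 13 genes listed as such or as related repressors (BHLHE40 and BHLHE41 among them), 7 passed the filter. Of these, 1 was called, where the paired fit called 10% of all genes. That gene was HES6, whose product opposes HES1 and favours neuronal differentiation. HES6 fell to 30.2 ± 12.4 CPM in knockdown, against 50.2 ± 8.66 CPM in control libraries (SD, n = 3 each; paired log2 fold change -0.78, edgeR adjusted p 0.0292). Without pair 2 it was at -0.52 and still called. HES1 was at 59.5 ± 7.14 CPM in knockdown and 56.7 ± 4.84 CPM in control libraries (adjusted p 0.583). BHLHE41 (0.35, adjusted p 0.218), HEY1 (0.23, adjusted p 0.544) and HES4 (-0.20, adjusted p 0.547) had the next smallest p-values. Of 16 mesodermal bHLH genes 8 were listed at 0 throughout, and of the 2 tested TWIST1 was at 0.26 (adjusted p 0.135) and TWIST2 at 0.00 (adjusted p 0.999).

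Genes of the BMP pathway, which feeds the ID genes, changed both ways when libraries were paired. Over all genes tested, the paired fit called 4.63% higher and 5.39% lower. Of 6 tested ligands, BMP5 rose to 13.4 ± 5.40 CPM in knockdown, against 6.29 ± 1.32 CPM in control libraries. Its log2 fold change was 1.09 (SE 0.268, edgeR adjusted p 0.0404), and 0.63 without pair 2 (adjusted p 0.0204). BMP3 fell by 0.88 on the log2 scale (adjusted p 0.0343), with overlapping groups. GDF6 was at -0.73 (adjusted p 0.139) and BMP1, a protease despite its name, at 0.24 (adjusted p 0.307). BMP2 was listed at 0, and BMP7, the most counted signalling ligand, was at 67.4 ± 4.49 CPM in knockdown and 68.6 ± 4.20 CPM in control libraries (adjusted p 0.836). Of 14 receptors, co-receptors and SMADs, BMPR2 and the co-receptor gene ENG rose and the activin receptor gene ACVR2B fell. BMPR2, the type II BMP receptor, was at 103.2, 146.8 and 115.3 CPM in knockdown and 81.2, 77.4 and 84.3 CPM in control libraries 1, 2 and 3 (adjusted p 0.0256). The log2 fold change was 0.65 for ENG (adjusted p 0.0211) and -0.48 for ACVR2B (adjusted p 0.0199), and both had overlapping groups. BMPR1B was at -0.42 (adjusted p 0.0623). None of the SMAD genes that carry the signal was called: SMAD1 was at -0.13, SMAD5 at 0.11, SMAD9 at -0.38 and SMAD4 at -0.02. The median was 0.05 over the receptors and SMADs and 0.10 over the ligands. Without pair 2 the ligand calls were again 1 higher and 1 lower, and those of the receptors and SMADs 2 and 2, BMPR1B (-0.31) being the added one.

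Among 13 tested antagonists and feedback inhibitors the median paired log2 fold change was 0.41, against -0.0045 over all genes. Of these 13, 3 rose and 1 fell, where 4.63% of all genes rose and 5.39% fell. GREM1, a secreted antagonist, was at 7.24, 22.7 and 22.9 CPM in knockdown libraries 1, 2 and 3, and at 2.02, 8.04 and 11.1 CPM in control libraries 1, 2 and 3. It was higher in every pair although the groups overlapped, and rose by 1.32 on the log2 scale (edgeR adjusted p 0.0187). FSTL1, a follistatin-like secreted protein, rose to 845.5 ± 91.8 CPM in knockdown, against 621.0 ± 8.30 CPM in control libraries (SD, n = 3 each; adjusted p 0.0230). SMURF1, a ubiquitin ligase for SMADs, rose by 0.26 (adjusted p 0.0476), and FST, the activin antagonist follistatin, fell by 0.44 (adjusted p 0.0317). SMAD6 and SMAD7, inhibitory SMADs that BMP signals induce in many cells as they do ID1, were at 0.17 (adjusted p 0.527) and 0.46 (adjusted p 0.137). Without pair 2 the median over the 12 still tested was 0.26, with 3 genes called higher and 1 lower.

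ID proteins are short-lived, and genes that set their turnover were listed with the chromatin cofactors of bHLH factors. Of 10 tested, 2 fell in the paired fit and none rose, where 5.39% of all genes fell and 4.63% rose. USP1, a deubiquitinase known to stabilise ID proteins, was at 131.5, 81.9 and 97.5 CPM in knockdown and 160.4, 152.4 and 141.1 CPM in control libraries 1, 2 and 3. It had no overlap between groups, as in 20.5% of all genes (log2 fold change -0.57, SE 0.105, edgeR adjusted p 0.0256). CDC20, a mitotic activator of the ubiquitin ligase that can degrade ID1, fell to 105.3 ± 37.6 CPM in knockdown, against 162.9 ± 16.3 CPM in control libraries (adjusted p 0.0261). Both calls were kept without pair 2, at -0.42 and -0.48. MXI1 (0.35, adjusted p 0.0654) and FZR1 (-0.16, adjusted p 0.151) came next.

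**Figure D4:**
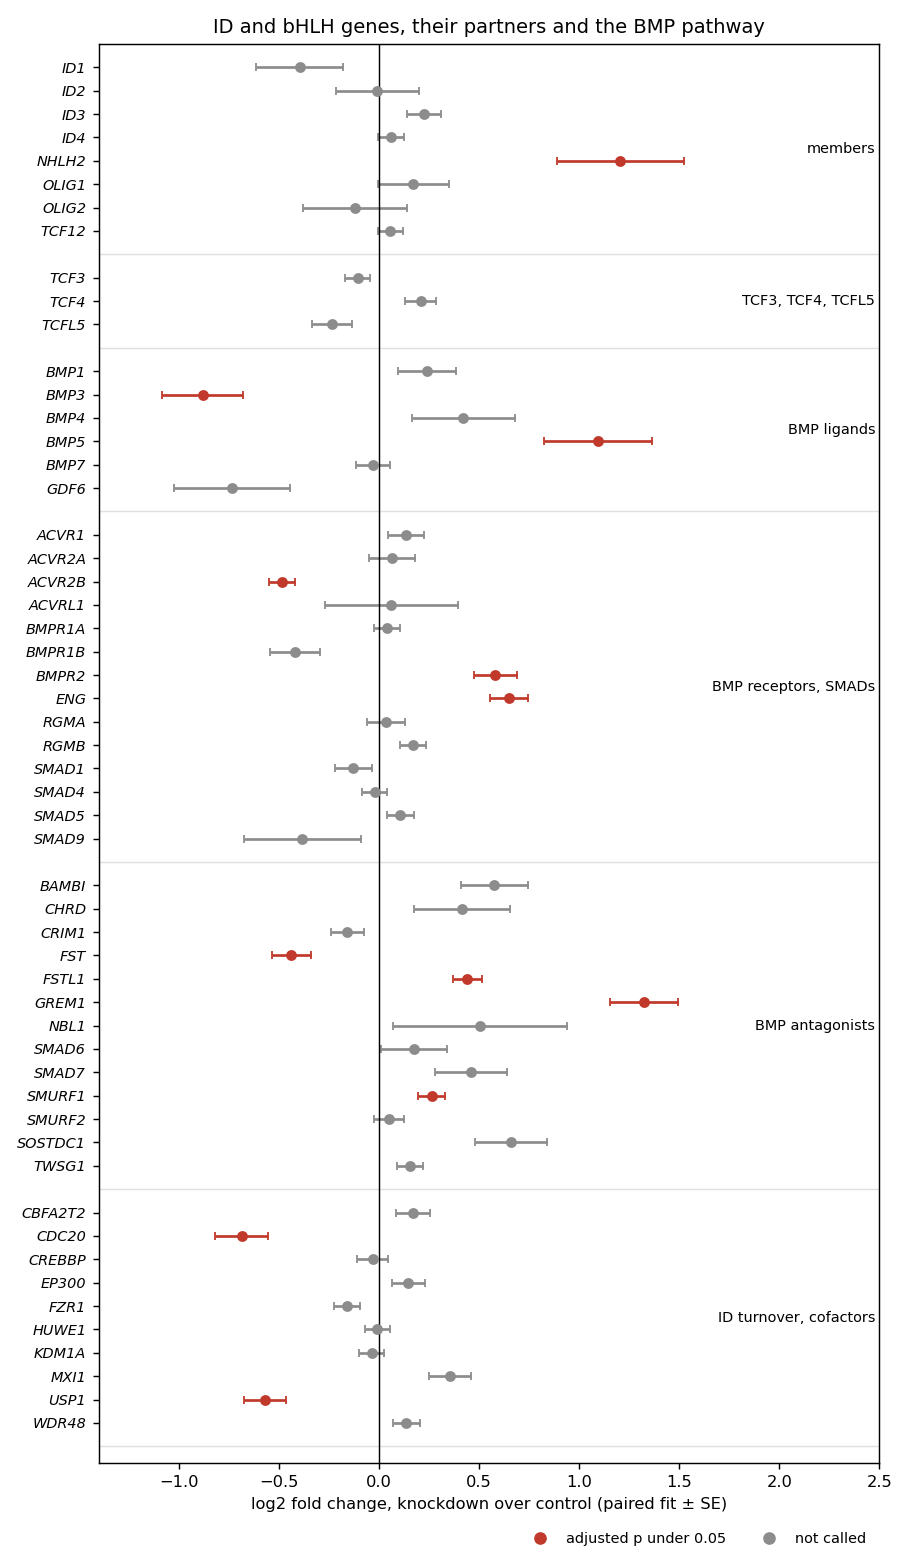
Paired log2 fold change with SE, knockdown over control, of every tested gene among the members, TCF3, TCF4 and TCFL5, the BMP lists and the list of ID turnover and cofactors; red marks an edgeR adjusted p under 0.05. NHLH2 is the red member, GREM1 (1.32) and BMP5 (1.09) are the highest red genes beside it, and BMP3 (-0.88) is the lowest.

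Markers of other cell types also changed in the paired fit. Over all genes tested, that fit called 4.63% higher and 5.39% lower. The marker lists were chosen with earlier results of these data known. Of 12 tested neuronal markers, the RNA-binding protein gene ELAVL3, the neurofilament gene NEFM and DPYSL3 fell (-0.96, -0.89 and -0.58) and none rose. ELAVL3 and DPYSL3 had overlapping groups, and the median over the list was -0.24. SYT1, next by p, was at 0.29 (edgeR adjusted p 0.0608). MAP2 also pointed up without being called (0.15, adjusted p 0.164). The summed level of the list ran from 1325 to 1858 CPM in knockdown and from 1673 to 1898 CPM in control libraries, and ELAVL4 and RBFOX3 were listed at 0. Without pair 2, 4 of the 12 fell and 1 rose (MAP2, at 0.13), and NEFM was at -0.56. Of 9 tested astroglial markers, TNC, GJA1, APOE and SPARCL1 rose (0.49, 0.26, 0.25 and 0.52) and none fell. Their list summed to 934.2 to 1020 CPM in knockdown and 841.6 to 842.3 CPM in control libraries, and the defining marker GFAP had a mean of 0.0451 CPM in knockdown libraries and 0 in control libraries. Of 13 tested neural stem cell markers, MMRN1 rose by 0.30 and PLAGL1 fell by 0.26, and the median paired log2 fold change was -0.20. PROM1 (-0.38, edgeR adjusted p 0.0765) and SOX3 (-0.62, adjusted p 0.0957) came next by p and were not called.

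Of 14 tested neural crest and mesenchymal markers, ITGA4, POSTN, COL3A1 and SNAI1 rose (1.09, 0.31, 0.39 and 0.42) and none fell. Their summed level was 2323 to 3149 CPM in knockdown and 1905 to 2278 CPM in control libraries, with FOXD3 listed at 0. Of 8 tested endothelial markers TIE1 and CDH5 rose (0.45 and 0.55). KDR (0.24, edgeR adjusted p 0.135) and PECAM1 (0.30, adjusted p 0.202) came next by p. TEK (-0.62, adjusted p 0.234) and EMCN (-0.05) pointed down without being called. The list summed to 176.6 to 320.1 CPM in knockdown and 163.9 to 281.9 CPM in control libraries. VWF averaged 0.260 CPM in knockdown and 0.434 CPM in control libraries. None of 4 tested pluripotency markers was called, with POU5F1 at -0.20, LIN28A at 0.25, DNMT3B at -0.15, DPPA4 at 0.004 and NANOG listed at 0. Without pair 2, 5 astroglial markers rose, 5 crest and mesenchymal markers rose and 1 fell, 3 endothelial markers rose, 2 neural stem cell markers rose and 1 fell, and among pluripotency markers POU5F1 fell (-0.24, edgeR adjusted p 0.0130). SPARCL1 was then at 0.33. That fit called 1198 genes higher and 1098 lower of 12846 in all. The part of any of these markers, or of knockdown library 2, in the values of the 9 genes was not tested.

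Over the 6 libraries, the members did not share a single pattern. The Pearson correlation of log2 CPM was 0.67 between ID3 and ID4 and -0.79 between ID1 and NHLH2, and it was 0.07 between ID1 and OLIG1; with 6 points in 2 groups, these describe the libraries only. Genes of at least 10 CPM most like each member were CHCHD7 and ZMAT3 for NHLH2 (0.998 and 0.997), SRD5A3 and EDC4 for ID1 (0.992 and 0.989), SEC16A and POLR1C for ID3 (0.996 and 0.991), and SLC25A22 for ID4 (0.995). They were CIAO1 and PAK4 for ID2 (0.983 and 0.969), ARPC5 and GAS8 for OLIG1 (0.996 and 0.985), IGSF8 and INO80 for OLIG2 (0.985 and 0.984), and API5 and DDI2 for TCF12 (0.998 and 0.995). Among about 10438 genes compared, 562 exceeded 0.9 with NHLH2 and 24 with ID2.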

How the data were processed

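RNA libraries of AF22 cells were directional, per the labels' protocols. The authors deposited whole-number read counts per gene symbol, 1 table per library. Per the submitters' processing notes, the tools were bedtools, STAR 2.7.10a and Trim Galore 0.6.6, with hg38 as build; which program counted reads, on which annotation and strand, is not given in the sources used here. Genes were kept by filterByExpr (12937 of 26485), scaled with TMM and tested with edgeR 4.0.16 (quasi-likelihood, R 4.3.3) with group as the only term, and again with the library number as a block. P-values were adjusted over all tested genes (Benjamini-Hochberg, threshold 0.05). The SE is the log2 fold change divided by the square root of F. CPM use TMM-scaled totals, and log2 CPM a prior count of 2.

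Treating library numbers as pairs followed a rule given with the gene set, and the labels do not say that same-numbered libraries belong together. Deviations from group means correlated at 0.563, 0.467 and 0.535 between same-numbered libraries, across genes. Libraries of different numbers were not compared in this way. The correlations use the same counts as the paired tests, so they are not independent support for the pairing. The members and gene lists were chosen with earlier results of these data known. Named genes were all members, BMI1, in each list the 4 of smallest paired p and any called, and the 2 genes most like each member (2 genes picked by these rules are not reported here); BMP7, HES1, SOX2, NES, SMAD genes and genes at or near 0 were added after their values were seen. Lists were described by counts and medians, with no list test. Alternatives were RLE factors, total count only, other filters, DESeq2 1.42.0, limma 3.58.1 voom and leaving out libraries or pairs. The fits were also run on simulated counts with known changes. That simulation built in library-number effects from the paired fit, so it cannot test the pairing, and its outcome is not used here.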

Additional observations from a re-analysis of the deposited data

How the results depend on the processing

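The paired call of NHLH2 held with RLE factors, total count scaling, no filter and a filter of at least 1 CPM in 3 libraries. The number of members called in the paired fit was 0 with DESeq2, which gave no adjusted p for NHLH2, 0 with limma voom and 0 with no replicate block, and it ranged from 0 to 1 when a pair was left out; the unpaired number was 0 throughout, and 1 with the replicate block. The paired log2 fold change of NHLH2 ran from 0.73 to 1.41 when a pair was left out, with adjusted p-values of 0.0326 to 0.311. Over all genes the paired fit called 1296, 2171 with no filter, 590 with DESeq2, 0 with no replicate block, and 912 to 2296 when a pair was left out (2296 without pair 2). The unpaired fit called 0, 2 with no filter, 126 with DESeq2, 1296 with the replicate block, and 0 to 665 when a library was left out (665 without knockdown library 1). Genes of the related lists called in the paired fit numbered 28 of 122 tested, beside 10% of all genes. The lists were chosen with earlier results of these data known. The number was 14 of 105 with DESeq2, 0 with no replicate block, and 21 to 39 when a pair was left out. Members near 0 changed sign when libraries were left out: paired, ID2 ran from -0.31 to 0.18 and OLIG2 from -0.19 to 0.003229; unpaired, ID2 from -0.17 to 0.15, OLIG2 from -0.36 to 0.035 and TCF12 from -0.035 to 0.17. The cause of these shifts was not tested. Without a pair, 4 libraries leave 1 residual degree of freedom. Genes under about 10 CPM, such as ID1, NHLH2 and the OLIG factors, carry too few counts for small shifts to be seen.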
